A study of Mus musculus with 6 samples.

Results

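The genes examined here encode the proteasome, the barrel-shaped protease that degrades ubiquitin-tagged proteins, in the liver of wild-type mice and of SIRT7 knockout mice. SIRT7 is a nuclear NAD-dependent deacylase, and the title of the study connects it with MYC activity and tumour suppression. The comparison gives the transcripts of this large complex with and without it. Members were all genes whose only symbol in the platform annotation starts with Psma, Psmb, Psmc, Psmd, Psme, Psmf or Psmg and a digit. This gave 48 of the 12393 genes on the array, and 47 of them had a mean log2 value of at least 4, the level from which genes were tested. The comparison rests on 3 wild-type livers and 3 livers carrying the knock-out allele of Sirt7, each measured on its own Affymetrix array. Strain, age and sex, and whether the allele was lost in every cell type, are not known from the labels, which describe both groups by the allele and a common treatment. Sirt7 itself read 9.85, 9.80 and 9.57 (log2) across the wild-type arrays and 2.38, 3.10 and 2.86 across the knockout arrays, so each array matched its label. It fell by 6.96 (SE 0.23, limma adjusted p = 3.99e-06), though where its probe set lies relative to the deletion is not known here. Array medians lay between 5.69 and 5.77, and correlations across the tested genes were 0.962 to 0.984 within groups and 0.949 to 0.979 between groups.

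The proteasome is built from a cylindrical core, in which an outer pair of alpha rings controls entry and an inner pair of beta rings carries the proteolytic sites, and from caps that bind, unfold and feed in the substrate. The 19S cap has a base, with a ring of ATPases, and a lid, which removes ubiquitin. Interferon can replace the catalytic beta subunits with immunoproteasome subunits and adds the PA28 activator, a form of the complex known for making peptides for antigen presentation. Transcription of the subunit genes is known to be coordinated, with the factor NRF1 (gene Nfe2l1) raising it when proteasome activity falls. The members comprised 14 genes of the 20S core, 17 of the 19S cap, 4 of the immunoproteasome (Psmb8, Psmb9, Psmb10 and Psme1), 7 assembly factors, 3 other regulators and 1 tissue-specific core subunit. A further 2 genes, Psmc3ip and Psme3ip1, match the symbol rule but do not encode proteasome subunits. Psme2, the partner of Psme1 in PA28, has no probe set to itself and was not analysed here.

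No proteasome gene passed the threshold of a Benjamini-Hochberg adjusted p under 0.05 over all tested genes with limma, a linear-model test (0 of 47 members, against 0.024% of the 8343 tested genes). The smallest adjusted p among the members was 0.772. At an unadjusted p under 0.05 there were 2 members higher in knockout livers, Psmd7 and Psmd9 (4.26%, against 3.04% of all tested genes), and 0 lower (against 3.42%). The groups did not overlap in 4 members with higher knockout values, Psma1, Psmd2, Psmd8 and Psmd10 (8.51%, against 4.27%), and in 0 members with lower ones (against 5.48%). Differences are given as knockout minus wild-type on the log2 scale, where 1 is a doubling. They lay above 0 in 27 of 47 members (57.4%, against 45.4% of all tested genes), with a median of 0.089 beside -0.032 over all tested genes. The median standard error of a member was 0.219. For 42 of 47 members the 95% interval of the difference lay within -1 and 1, which held for 79.6% of all tested genes. The other 5 intervals were those of Psmd7 (0.03 to 1.58), Psmb9 (-0.05 to 1.22), Psmd9 (0.02 to 1.21), Psmd13 (-0.22 to 1.03) and Psmd1 (-1.16 to 0.11).

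**Figure D1:**
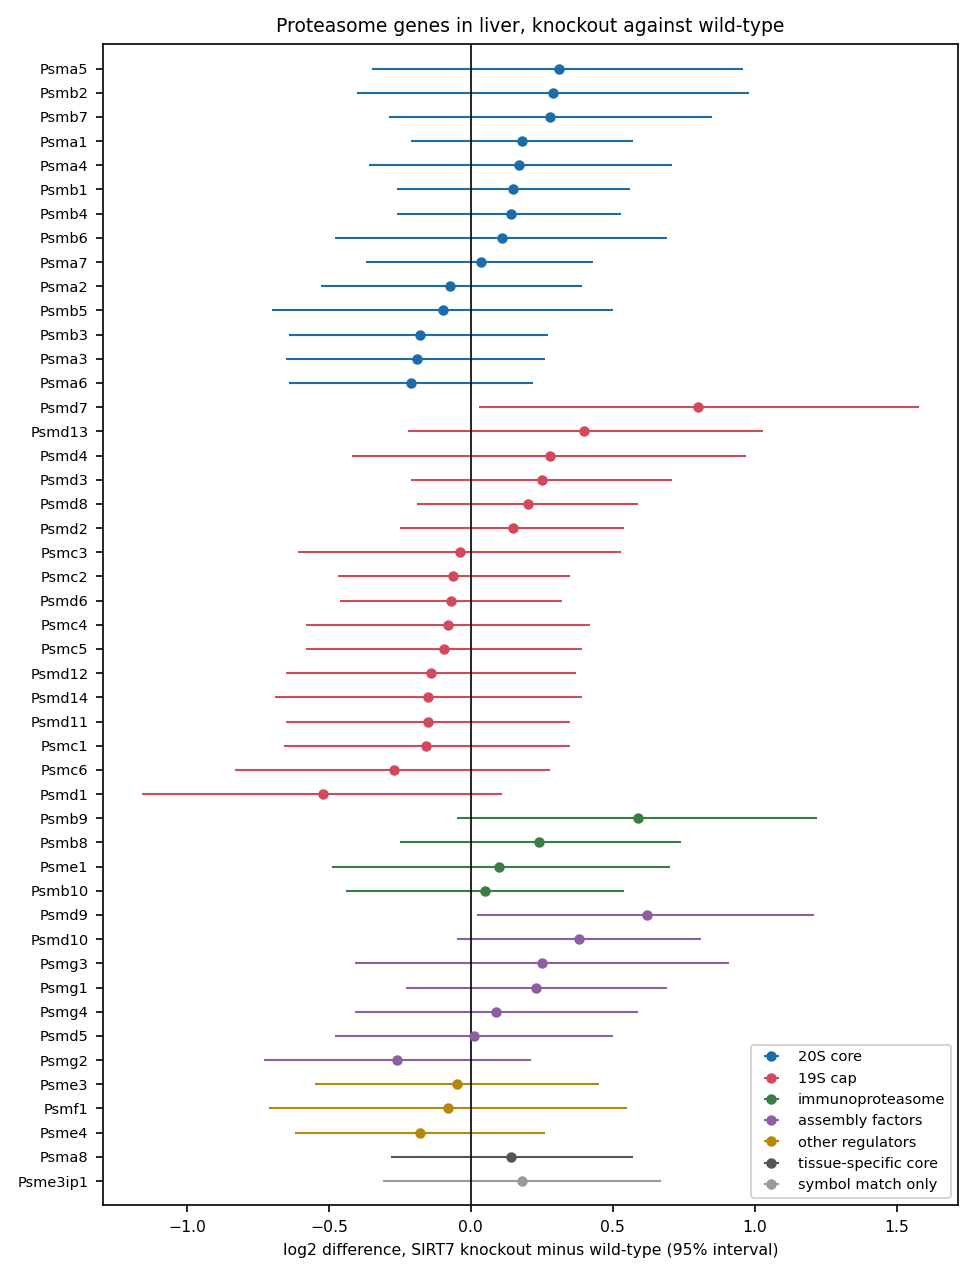
Log2 difference (knockout minus wild-type) of the 47 tested members with its 95% interval, coloured by class and sorted within it; 3 livers per group. Only the intervals of Psmd7 and Psmd9 lie wholly on one side of 0, and neither gene passed the threshold after adjustment over 8343 genes.

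The start regions of the genes were read for short sequence motifs, with the share of other genes beside each. RefSeq promoter windows of assembly GRCm38.p6, from 250 bases before to 50 bases after the transcript start, were found for 40 of 48 members and searched on both strands for 6 motifs. The ETS site CCGGAA was found in 22 of 40 members (55.0%), in 32.5% of the tested genes with a promoter and in 16.7% of all genes with one. The tested members were brighter than the tested genes (median level 10.83 against 8.42), and the shares were not matched for level. The interferon-stimulated response element, searched as GAAA, any 2 bases and GAAA again, was found in 5 members (12.5%, against 3.88% of tested genes), namely Psmb3, Psmd4, Psmd9, Psme1 and Psmg4. The core of the antioxidant response element, TGACNNNGC, to which NRF1 and NRF2 can bind, was found in 6 members, Psmb5, Psmb6, Psmc6, Psmd12, Psmd9 and Psme4 (15.0%, against 16.9%). The E-box CACGTG, a MYC recognition sequence, was found in 5 members (12.5%, against 12.1%), the CCAAT box in 15 (37.5%, against 43.1%) and the gamma-activated site TTCNNNGAA in 3 (7.5%, against 8.13%). A match is a run of letters, not a binding site shown in these livers. The E-box members were Psma4, Psmb10, Psmd9, Psme3 and Psme3ip1.

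The sequences below are the 250 bases before the transcript start of 5 members, 5′ to 3′ on the gene's strand, with every match to the 6 motifs in capitals. They were chosen because Psmb5 and Psmb8 are the standard and the interferon-induced version of the same catalytic subunit, and because Psmd4, Psmd9 and Psmd10 carry several kinds of match and are described further on.
Psmb5 (chr14:54617996-54618245, minus strand): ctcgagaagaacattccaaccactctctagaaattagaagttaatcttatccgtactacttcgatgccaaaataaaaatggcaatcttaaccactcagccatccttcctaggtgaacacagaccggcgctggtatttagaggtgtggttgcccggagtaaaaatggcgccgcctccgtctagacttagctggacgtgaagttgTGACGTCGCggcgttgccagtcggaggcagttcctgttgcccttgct
Psmb8 (chr17:34197945-34198194, plus strand): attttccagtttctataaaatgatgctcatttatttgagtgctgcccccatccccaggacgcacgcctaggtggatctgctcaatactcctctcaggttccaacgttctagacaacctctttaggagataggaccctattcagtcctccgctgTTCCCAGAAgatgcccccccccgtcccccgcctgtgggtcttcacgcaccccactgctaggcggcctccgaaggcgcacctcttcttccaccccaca
Psmd4 (chr3:95042615-95042864, minus strand): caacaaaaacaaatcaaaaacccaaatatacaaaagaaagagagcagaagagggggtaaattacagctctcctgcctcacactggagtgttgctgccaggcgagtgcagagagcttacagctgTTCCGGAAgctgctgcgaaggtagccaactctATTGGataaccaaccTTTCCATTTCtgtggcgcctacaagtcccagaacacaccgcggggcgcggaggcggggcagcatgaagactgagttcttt
Psmd9 (chr5:123227940-123228189, plus strand): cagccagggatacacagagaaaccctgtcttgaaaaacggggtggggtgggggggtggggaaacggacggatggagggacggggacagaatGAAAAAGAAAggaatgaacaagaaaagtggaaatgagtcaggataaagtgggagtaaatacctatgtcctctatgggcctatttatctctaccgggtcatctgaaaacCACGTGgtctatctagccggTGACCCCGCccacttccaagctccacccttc
Psmd10 (chrX:140956712-140956961, minus strand): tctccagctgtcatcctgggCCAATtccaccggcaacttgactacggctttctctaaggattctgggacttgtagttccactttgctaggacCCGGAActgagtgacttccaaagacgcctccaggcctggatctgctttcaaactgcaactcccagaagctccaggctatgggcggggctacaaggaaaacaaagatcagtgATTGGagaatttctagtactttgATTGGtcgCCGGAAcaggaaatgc
In Psmb5 the capitals mark 1 antioxidant response element match from position -47 to -39, counted from the transcript start, and in Psmb8 a gamma-activated site from -97 to -89. Psmd4 has overlapping ETS matches on both strands (-127 to -120), a CCAAT box on the opposite strand and an interferon-stimulated response element (-80 to -71). Psmd9 has an interferon-stimulated response element (-159 to -150), an E-box (-51 to -46) and an antioxidant response element match (-31 to -23). Psmd10 has ETS matches at -158 to -153 and -16 to -11, and 3 CCAAT boxes.

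**Figure D2:**
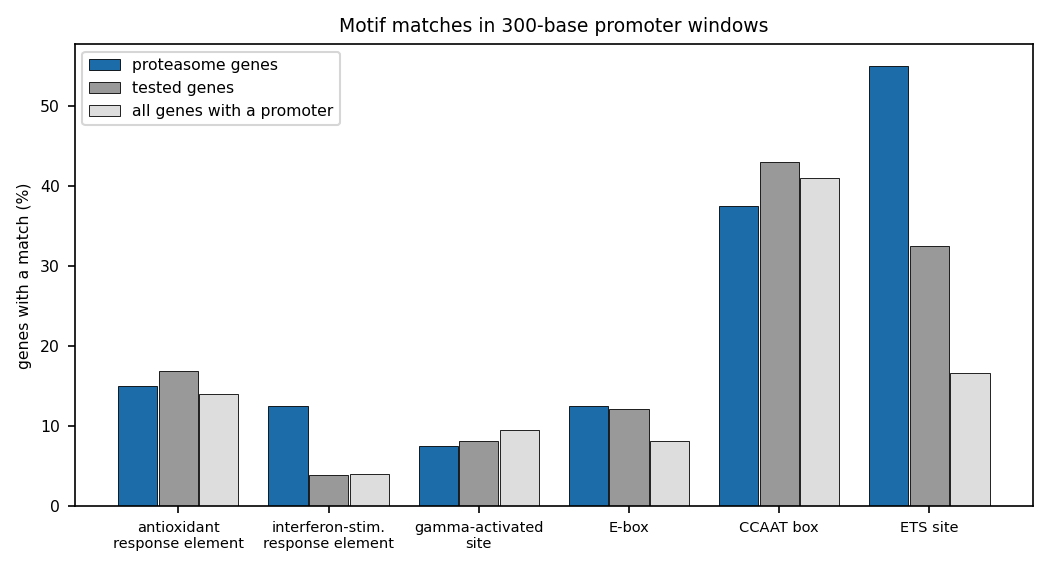
Percent of genes with at least 1 match to each of 6 motifs in the promoter window. Shown are the 40 members (proteasome genes in the legend), the 6823 tested genes and the 27025 genes with a promoter in the RefSeq table. The members include Psmc3ip and Psme3ip1, which encode no proteasome subunits and both have an ETS match. ETS matches are found in 55.0% of these members, 32.5% of tested genes and 16.7% of all genes.

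The 20S core genes differed by a median of 0.121 (14 genes, 9 above 0 and 5 below, from -0.21 to 0.31), and 0 had an unadjusted p under 0.05. Leaving out wild-type replicate 1 gave a median of 0.026, and array weights gave 0.019. In the alpha ring, which gates the channel, the median was 0.034 and in the beta ring, which holds the active sites, 0.135. Psma1, an alpha ring subunit, read 10.93, 10.87 and 10.96 on the log2 scale in the wild-type livers, in replicate order, and 11.13, 11.15 and 11.03 in the knockouts, an order kept for all genes below. Every knockout value lay above every wild-type value, and the gap was small (0.18, SE 0.17, limma adjusted p = 0.842), and the mean of its probe sets gave -0.059. Psma6, another alpha ring gene, had 12.01, 12.10 and 11.89 in wild-type and 11.71, 11.67 and 12.00 in knockout livers (-0.21, SE 0.19). Knockout replicate 3 lay inside the wild-type range, while knockout replicates 1 and 2 lay below it. A second Psma6 probe set of similar level differed by 0.06. Psma5 had 11.02, 11.48 and 11.02 in wild-type livers and 11.87, 11.70 and 10.88 in knockout livers (0.31, SE 0.29). Here knockout replicate 3 was the lowest of the 6 livers and the other knockout livers were the highest pair. The remaining 4 alpha ring genes, Psma2, Psma3, Psma4 and Psma7, differed by -0.19 to 0.17, with adjusted p-values of 0.857 to 0.977.

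The 3 catalytic subunits of the standard core had overlapping groups. Psmb5, which carries the chymotrypsin-like site, had log2 values of 10.56, 10.70 and 11.25 in wild-type and 10.53, 10.52 and 11.16 in knockout livers. Replicate 3 was the highest of its group in both groups, and the groups overlapped over nearly their whole range (-0.10, 95% interval -0.70 to 0.50). Psmb6, with the caspase-like site, had 10.66, 11.28 and 11.53 against 11.29, 11.05 and 11.45. Wild-type replicate 1 stood below the other 5 livers, and the difference was 0.11 (-0.48 to 0.69). Psmb7, with the trypsin-like site, had 11.78, 11.49 and 11.56 against 12.24, 12.04 and 11.39. Knockout replicates 1 and 2 were the highest and knockout replicate 3 the lowest of the 6 (0.28, -0.29 to 0.85). The structural beta subunits Psmb1, Psmb2, Psmb3 and Psmb4 differed by 0.15, 0.29, -0.18 and 0.14, with adjusted p-values of 0.859 to 0.879. Of these, Psmb2 spread most over the wild-type livers, from 8.78 in replicate 1 to 9.97 in replicate 3.

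The immunoproteasome genes lay above 0 in 4 of 4 members, with a median difference of 0.174, and 0 passed the threshold. Psmb9, which replaces Psmb6 in the immunoproteasome, had log2 values of 7.64, 8.02 and 8.42 in wild-type and 9.07, 8.29 and 8.48 in knockout livers. Knockout replicate 1 was highest, and wild-type replicate 3 lay between knockout replicates 2 and 3, so that the groups overlapped. The difference of 0.59 (SE 0.28, 1.5-fold) was the largest of the class, with an unadjusted p of 0.0654 and an adjusted p of 0.773 from limma, and it was 0.36 without knockout replicate 1. Psmb8, which replaces Psmb5, had 7.62, 8.07 and 7.93 against 8.04, 7.90 and 8.41 (0.24, SE 0.22), with only knockout replicate 3 above all wild-type livers. Psmb10, which replaces Psmb7, had 9.79, 10.06 and 10.32 against 9.91, 10.06 and 10.35 (0.048, SE 0.22), and Psme1, the alpha subunit of PA28, had 10.52, 10.96 and 11.42 against 11.08, 10.84 and 11.30 (0.10, SE 0.26). Wild-type replicate 1 was the lowest of the 6 livers in all 4 genes, against 19 of 47 tested members and 1456 of 8343 tested genes. Without it the class median was 0.015, with Psmb10 (-0.085) and Psme1 (-0.12) below 0, and with array weights Psmb8 (-0.013) and Psme1 (-0.041) lay below 0.

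In the gene order of GRCm38.p6, Psmb9 and Psmb8 alternate with Tap1 and Tap2, the genes of the peptide transporter of antigen presentation, and Psmb9 and Tap1 are known to share a promoter region. The differences of these neighbours lay below 0 by less than their standard errors. In both, knockout replicate 1 was the lowest and knockout replicate 3 the highest of the 6 livers. Tap1 had log2 values of 6.66, 7.04 and 7.24 in wild-type and 6.52, 6.81 and 7.32 in knockout livers, a difference of -0.099 (SE 0.26), and Tap2 differed by -0.061 (SE 0.20). The difference between Psmb9 and Tap1 was itself not tested.

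Markers were read for the cells a liver sample can hold, since immune cells make much immunoproteasome and, in a tissue sample, fewer cells of a type and less RNA per cell cannot be told apart. The 7 hepatocyte markers were bright, with a mean log2 value of 11.98 to 12.46 over the wild-type and 11.84 to 12.22 over the knockout livers. Over the 8 Kupffer cell and macrophage markers on the array the mean was 8.55 to 8.64 in wild-type and 8.48 to 8.89 in knockout livers. The 8 lymphocyte markers were at 4.92 to 5.29 and 4.46 to 5.85, and the 4 dendritic cell markers, all under the filter, at 2.26 to 2.57 and 2.35 to 2.60. The 4 neutrophil markers were at 5.33 to 6.11 and 5.42 to 7.19. The 3 of them that were tested lay above 0 (0.45 to 0.77, median 0.685), with a smallest limma adjusted p of 0.773. Knockout replicate 2 was the highest of the 6 livers in these 3. In the endothelial, erythroid, cholangiocyte, stellate and acinar lists the largest differences without overlap were those of the erythroid Slc4a1 (1.32, SE 0.38, limma adjusted p = 0.725) and the cholangiocyte Sox9 (-0.91, SE 0.31, adjusted p = 0.746). The group ranges of the mean overlapped in all 10 lists. Of the macrophage markers, Cd68 had 6.31, 6.46 and 6.67 against 7.22, 6.85 and 6.89 (0.50, SE 0.20, limma adjusted p = 0.769), without overlap, while Csf1r differed by -0.63 (SE 0.32). Knockout replicate 1, the highest liver for Psmb9, was the highest of the 6 livers in 5 of the 8 macrophage markers (1715 of 8343 tested genes). These were Cd68, Adgre1, Cd5l, Marco and Vsig4. The same liver was lowest for Csf1r, and Clec4f and Lyz2 were highest in wild-type replicate 3. Knockout replicate 1 was also the lowest of the 6 livers in 5 of the 6 tested lymphocyte markers (2423 of 8343 tested genes). The part of these cells in the immunoproteasome values was not tested.

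The 17 genes of the 19S cap differed by a median of -0.070 (6 above 0 and 11 below), from -0.52 to 0.80, and by -0.007 without knockout replicate 2. All 6 ATPase genes, Psmc1 to Psmc6, lay below 0 (-0.27 to -0.038, median -0.088), but 4 to 6 of them did when 1 liver was left out and 5 with array weights. Psmc3, Psmc4 and Psmc5 were the ones that turned without 1 liver. The one farthest from 0 was Psmc6, with 11.06, 11.21 and 11.41 in wild-type and 10.77, 10.66 and 11.42 in knockout livers (SE 0.24, limma adjusted p = 0.838), and its other probe sets differed by -0.05 and -0.03. Psmd1, the large scaffold of the base, had 10.32, 10.64 and 10.40 in wild-type and 9.53, 9.72 and 10.55 in knockout livers. Knockout replicates 1 and 2 lay below all wild-type livers, but knockout replicate 3 lay among them (-0.52, SE 0.28, limma adjusted p = 0.788). Psmd2, the other base scaffold, went the other way by a small margin, at 10.83, 10.96 and 10.98 against 11.00, 11.05 and 11.16 (0.15, SE 0.17). Its groups did not overlap. Psmd4, a ubiquitin receptor, had 9.96, 10.41 and 11.13 against 10.93, 10.47 and 10.93 (0.28, SE 0.31), a difference of 0.006 without wild-type replicate 1 and 0.59 without wild-type replicate 3. Both groups covered the middle of its range, with wild-type replicates 1 and 2 lowest and wild-type replicate 3 highest.

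Among the 8 lid genes, 4 lay above 0 and 4 below. Psmd7, a structural partner of the lid deubiquitinase, had the largest difference of all members. Its log2 values were 7.07, 7.32 and 8.24 in wild-type and 8.82, 8.22 and 8.0 in knockout livers. Wild-type replicates 1 and 2 were clearly lowest, but wild-type replicate 3 lay above knockout replicates 2 and 3. The difference was 0.80 (SE 0.34, 1.74-fold), higher in 3 of 3 knockout livers than the wild-type mean, with an unadjusted p of 0.0434 and an adjusted p of 0.772 from limma. Psmd13, another lid subunit, had 8.28, 8.33 and 9.04 against 9.21, 8.56 and 9.09 (0.40, SE 0.27), again with wild-type replicates 1 and 2 lowest. Psmd14, the deubiquitinase that removes ubiquitin chains from substrates, had 10.52, 11.05 and 11.02 against 10.71, 10.41 and 11.02 (-0.15, 95% interval -0.69 to 0.39), with overlapping groups. Psmd3 had 9.28, 9.16 and 9.69 against 9.70, 9.63 and 9.56 (0.25, SE 0.20). Psmd8 had 11.48, 11.49 and 11.60 against 11.75, 11.64 and 11.79 (0.20, SE 0.17), without overlap. Psmd6, Psmd11 and Psmd12 differed by -0.070, -0.15 and -0.14.

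**Figure D3:**
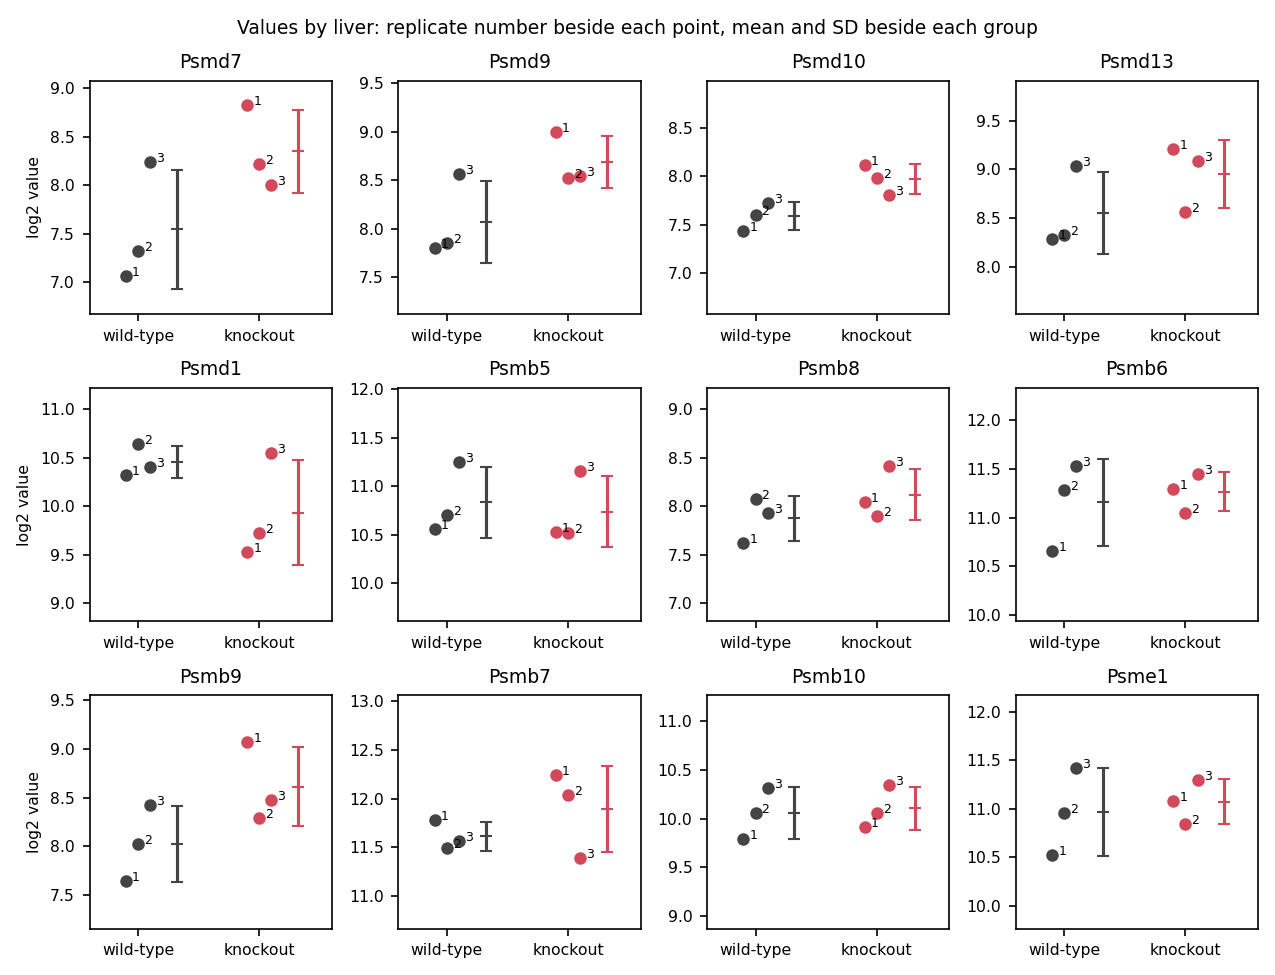
Log2 values of 12 members in each liver, with the replicate number beside each point and the group mean with SD beside it (n = 3 livers per group; each panel spans the same height in log2 units). In Psmd7, Psmd9, Psmd13 and Psmb9 wild-type replicates 1 and 2 are the lowest pair, in Psmd1 and Psmb5 knockout replicates 1 and 2 are, and of these 12 genes the groups do not overlap in Psmd10.

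The 7 assembly factors, which join subunits into rings and caps and then leave, had a median difference of 0.231, with 6 above 0 and 1 below, and of 0.034 without wild-type replicate 1. Psmd9, a chaperone of the base, had log2 values of 7.80, 7.85 and 8.56 in wild-type and 9.0, 8.52 and 8.54 in knockout livers. As in Psmd7, wild-type replicate 3 lay among the knockout livers (0.62, SE 0.26, unadjusted p 0.0438 and adjusted p = 0.772 from limma). Psmd10, gankyrin, a chaperone of the base that was also described as an oncoprotein of liver cancer, had 7.44, 7.60 and 7.73 against 8.12, 7.98 and 7.81. Its groups did not overlap, the difference was 0.38 (SE 0.19, 1.3-fold), and the adjusted p was 0.775. Psmg1, a chaperone of alpha ring assembly, had 9.13, 9.44 and 9.59 against 9.77, 9.47 and 9.62 (0.23, SE 0.20). Its partner Psmg2 had 10.00, 10.14 and 10.12 against 9.76, 9.57 and 10.15 (-0.26, SE 0.21). On the probe sets used this pair lay on opposite sides of 0, but a second, dimmer Psmg2 probe set differed by 0.28. Psmg3, Psmg4 and Psmd5 differed by 0.25, 0.089 and 0.010.

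The other regulators had a median difference of -0.080, which was 0.070 with the mean of probe sets and 0.019 without wild-type replicate 2. Psme4 encodes the activator PA200 and had 11.09, 11.21 and 10.77 in wild-type and 10.93, 10.78 and 10.82 in knockout livers (-0.18, SE 0.19). Psme3, the nuclear activator PA28 gamma, had 9.0, 9.01 and 8.62 against 8.94, 8.51 and 9.03 (-0.050, SE 0.22). Psmf1, which encodes the regulator PI31, had 8.47, 8.73 and 8.37 against 7.83, 8.71 and 8.79 (-0.080, SE 0.28), with knockout replicate 1 alone below the rest. The groups overlapped in these 3 genes. Psma8, the alpha subunit of the testis, lay just above the filter at 4.02 to 4.41 in the 6 livers (0.14, SE 0.19). Psme3ip1 differed by 0.18 (SE 0.22), and Psmc3ip, a meiotic recombination factor, was the member under the filter, at 3.54 to 3.97. Psma8 and Psmc3ip lie near the filter level, and no detection calls were used to tell such values from background.

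Many members shared an order among the livers of a group. Wild-type replicate 3 was the highest wild-type liver in 30 of 47 members (63.8%, against 37.2% of all tested genes), and knockout replicate 2 was the lowest knockout liver in 34 of 47 (72.3%, against 28.8%). Each member was set against its own 6-liver mean, and the median deviation over members came to -0.165, -0.038 and 0.127 for the wild-type arrays and 0.075, -0.107 and 0.163 for the knockouts. The corresponding medians of all tested genes stayed between -0.049 and 0.065. In 16 members, wild-type replicates 1 and 2 were the lowest pair of the 6 (34.0%, against 12.4% of tested genes). They included Psmd7, Psmd9, Psmd10, Psmd13, Psmd4, Psmb9, Psmb2 and Psmg3. In 11 members, knockout replicates 1 and 2 were the lowest pair (23.4%, against 20.3%), among them Psmd1, Psmc1, Psmc6, Psmd11, Psmd12, Psmb5 and Psma6. These patterns were described after the values were seen and were not tested.

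**Figure D4:**
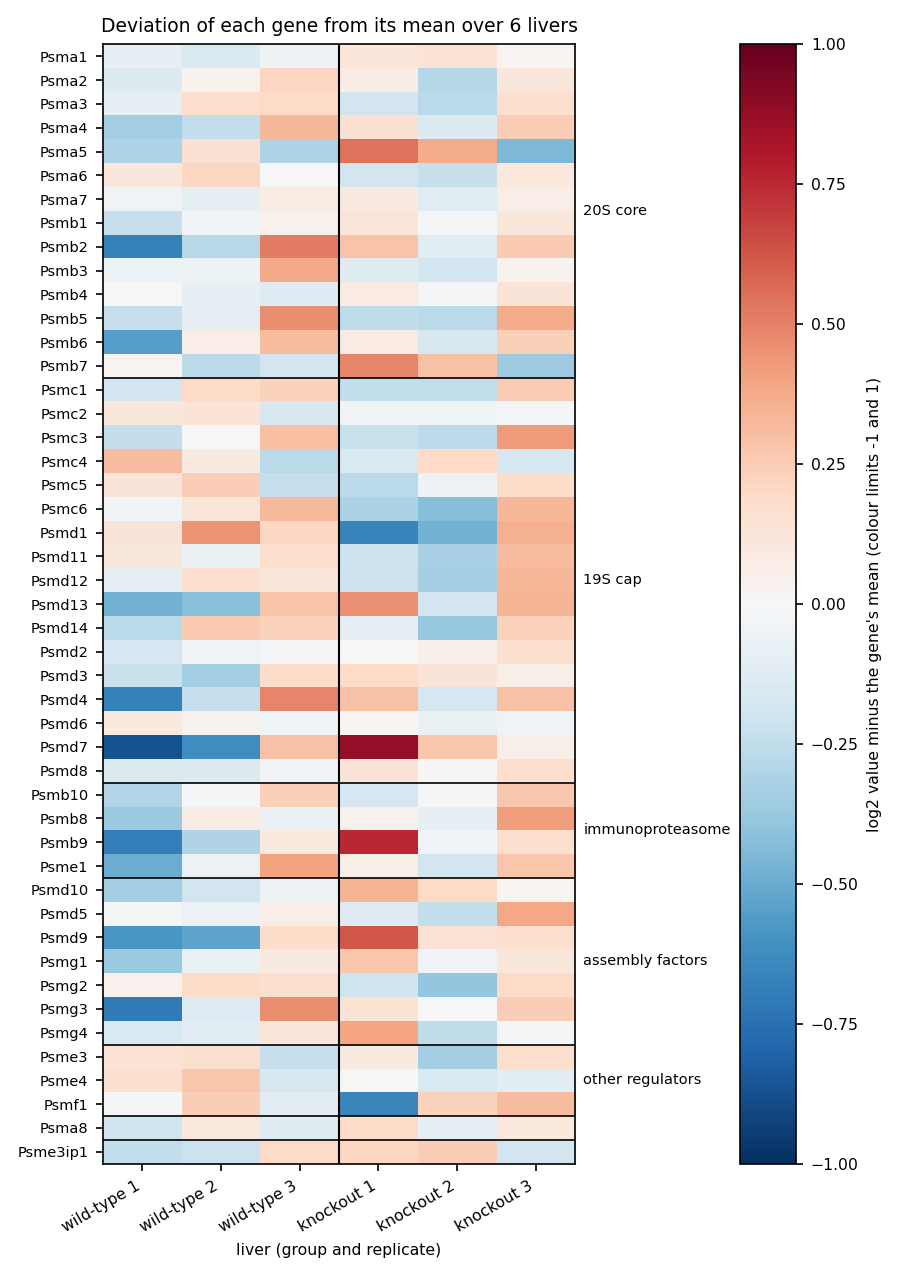
Log2 value of each tested member minus its mean over the 6 livers, one column per liver, with the classes separated by lines (the last 2 rows are Psma8 and Psme3ip1). Blue cells in wild-type replicate 1 and red ones in wild-type replicate 3 run through several classes, and knockout replicate 2 is the lowest knockout liver in 34 of 47 genes.

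The number of members with a small p depended on single livers. The count of 2 higher members became 0 once wild-type replicate 1, wild-type replicate 2 or knockout replicate 1 was left out, and also when probe sets were averaged. Without knockout replicate 2 it was 1, and that gene was Psmb9. Psmd7 then differed by 0.57 without wild-type replicate 1 or knockout replicate 1 and by 0.46 with the mean of probe sets, and Psmd9 by 0.48, 0.46 and 0.49 in the same order. Without wild-type replicate 3, 6 members were higher at an unadjusted p under 0.05 (12.8%, against 6.11% of tested genes), namely Psmb2, Psmb9, Psmd13, Psmd4, Psmd7 and Psmd9. The difference of Psmd7 was then 1.15 (SE 0.28) and that of Psmd9 0.86 (SE 0.23), with limma adjusted p-values of 0.172 and 0.216. Without knockout replicate 3, 4 members were higher (8.51%, against 5.57%) and 3 lower (6.38%, against 11.0%). The lower ones were Psmc6, Psmd1 and Psmg2, and Psmd1 then differed by -0.83 (SE 0.19). Neither fit called a member after adjustment. A fit that weights arrays by their scatter called 6 members (12.8%), but it called 21.0% of all tested genes and gave knockout replicate 2 a weight of 6.12 against 0.31 for knockout replicate 3.

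The probe sets of a gene did not always point the same way. Of the 20 members with more than 1 probe set at a mean of at least 4, 11 had a probe set of the other sign than the brightest one, which was used here. The range between the probe sets of a gene was 0.45 in the median and at most 1.04. For Psme4 the probe set used differed by -0.18, and the others by 0.32 and 0.43. For Psmd6 the probe sets differed by -0.07 and 0.49, and for Psmb3 by -0.18 and 0.47. The 5 probe sets of Psmd11 ranged from -0.15 to 0.64. A second probe set of Psmd4, at a mean of 9.61, differed by 0.79 (SE 0.38), against 0.28 on the one used. The second probe sets of Psmd7 (0.11) and Psmd9 (0.36) kept the sign at much lower levels, with means of 4.36 and 5.19. When each probe set was tested on its own, 4 of the 80 probe sets of members had an unadjusted p under 0.05 (5.0%, against 6.0% of all 13143 probe sets) and 0 passed after adjustment with limma. Of the 4, those of Psmd7 and Psmd9 were the ones used. The others were dimmer probe sets with lower knockout values, of Psma6 (-0.76, SE 0.29, against -0.21 on the one used) and Psmf1 (-0.66, SE 0.29, against -0.08). The remaining Psma6 probe sets differed by 0.06, at a mean of 11.87, and by -0.54, and those of Psmf1 by -0.23 and 0.38.

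**Figure D5:**
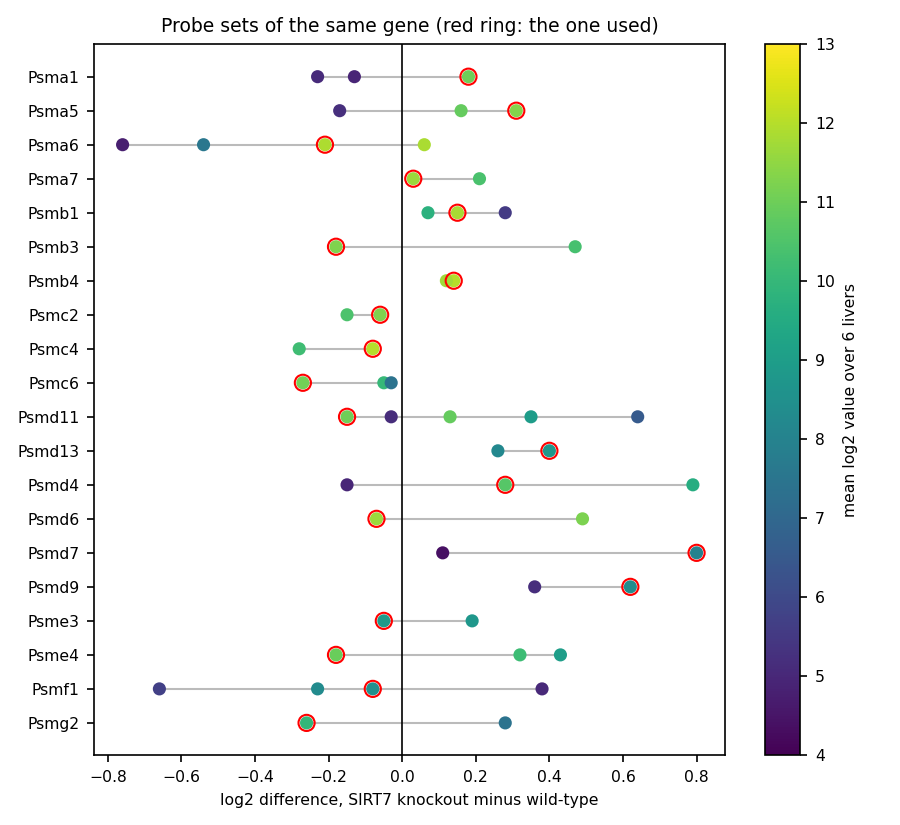
Log2 difference of every probe set with a mean of at least 4 for the 20 members that have several; colour gives the mean log2 value and the red ring the probe set used. In 11 genes the probe sets lie on both sides of 0, among them Psmb3, Psmd6, Psmd11 and Psme4.

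Sirt7 lies on mouse chromosome 11, where 9 of the 48 members also lie. Of the 47 tested members 8 lie there (17.0%, against 8.43% of all tested genes with a place in the assembly). The nearest member in the gene order of GRCm38.p6 was Psmd12, at 101 tested genes from Sirt7, followed by Psmc5 at 114 and Psme3 at 159. Psmd3 and Psmb3 were 200 and 210 genes away, and Psme4 was farthest at 591. Their differences ran from -0.18 in Psmb3 and Psme4 to 0.25 in Psmd3. None of the 8 that were tested had an unadjusted p under 0.05 with limma. Over all tested genes 3.04% were higher and 3.42% lower at that level, so 8 genes are too few to tell apart from this share.

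Genes around the proteasome did not pass the threshold either. The 18 partners measured, such as shuttle factors, deubiquitinases and the segregase Vcp, had a median difference of -0.044 with 8 above 0 and 10 below. Among them the smallest p belonged to the stress-induced Zfand2a (-0.54, SE 0.39), the cap-bound deubiquitinase gene Uchl5 (0.36, SE 0.29) and the shuttle gene Ubqln4 (0.25, SE 0.21), and the core chaperone gene Pomp differed by -0.17 (SE 0.23). Of 7 genes that control proteasome transcription (median 0.061), Nfe2l1 had 8.93, 9.30 and 9.52 in wild-type and 9.50, 9.18 and 9.35 in knockout livers (0.093, 95% interval -0.39 to 0.58). Nfe2l2, which encodes NRF2, differed by 0.23 (-0.27 to 0.74) and Nfe2l3 by -0.20 (SE 0.27). Maff, a small partner of these factors, had 4.42, 4.50 and 4.53 against 6.14, 4.43 and 5.20 (0.77, SE 0.38), with knockout replicate 1 far above the rest.

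The 11 measured genes of ubiquitin conjugation had a median difference of 0.015, with 6 above 0 and 5 below. Ube2d2a, a ubiquitin-conjugating enzyme gene, had 10.85, 10.78 and 10.19 in wild-type and 9.67, 9.91 and 10.29 in knockout livers (-0.65, SE 0.25, unadjusted p 0.0308 and adjusted p = 0.769 from limma), with knockout replicate 3 inside the wild-type range. Ube2c, the enzyme that starts chains for the anaphase-promoting complex and a cell cycle gene, had 5.49, 4.64 and 8.11 against 7.92, 7.91 and 7.41 (1.67, SE 0.74). In it wild-type replicate 3 also stood with the knockout livers, as in Psmd7, and the limma adjusted p was 0.773. Leaving out that liver, limma called Ube2c (2.69, SE 0.31, adjusted p = 0.0137). The liver left out was the one apart from its group, and calls over all genes then rose from 2 to 38. Ube2v1 differed by 0.18 (SE 0.18). The COP9 signalosome, whose subunits resemble those of the lid, had a median difference of -0.052 over 9 genes, with Cops7b at 0.39 (SE 0.21), Cops7a at -0.32 (SE 0.20), Cops5 at 0.16 (SE 0.21) and 0 called. The 12 measured genes of class I antigen processing had a median of -0.019, with Tapbp at -0.26 (SE 0.24), the interferon factor gene Irf1 at 0.28 (SE 0.27) and Pdia3 at 0.19 (SE 0.27).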

How the data were processed

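Gene expression in 6 mouse livers was measured on 1-colour arrays. The values deposited by the authors are 1 log2 intensity per probe set. The submitters' processing notes name GCRMA 2.20.0 and R 2.11.1 without settings or log base, and the log2 scale was read from the range of 0.841 to 13.969. GCRMA pulls unexpressed transcripts to low values, where differences are not proportional to RNA amounts, and no detection calls were used. Of 22626 probe sets, 20380 have 1 gene symbol. Each of 12393 genes was represented by its brightest probe set over 6 arrays, and 8343 genes with a mean of at least 4 were tested with limma 3.58.1 in R 4.3.3 (2-sided, Benjamini-Hochberg adjustment, no replicate block; 4 residual and 4.6 prior degrees of freedom). The fit was also tested on simulated data of this comparison with 8343 genes. It called 42 of 100 genes changed by 1 on the log2 scale and 91 of 100 changed by 2, with 5 false calls. Whether these shares hold for the measured livers, where 2 genes were called, was not tested. The labels do not say that each array is a different mouse, so the p-values cover only variation among these 6 samples, part of which may be technical. The number of arrays limits the precision.

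The members, classes and related lists were chosen with earlier results of these data known. Values are given for the catalytic and immunoproteasome subunits, for Psmd14, Psmd4, Psme3, Psme4 and Psmf1, for the 4 members with the smallest p of the core, cap and assembly classes, and for the 3 genes with the smallest p of each related list; further members were added after their values were seen. Of the genes named for the related lists, those without a probe set of their own, among them Adrm1, are not analysed here. Alternatives were other filters (none, or a mean of at least 6), the mean of probe sets or each on its own, quantile normalization, array weights, a robust prior with trend, the replicate block and leaving out each array.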

Additional observations from a re-analysis of the deposited data

How the results depend on the processing

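No proteasome gene passed the threshold in the alternatives run, except with array weights, which called 6 of them and 1748 genes in all. Over all genes 2 were called, against 1 with the mean of probe sets and 1 to 38 without 1 array. With array weights, calls in the related lists numbered 2 of 18 proteasome partners, 1 of 7 transcription genes, 3 of 11 in ubiquitin conjugation and 1 of 9 in the COP9 signalosome, against 21.0% of all tested genes. The median of the other regulators, -0.080, was -0.34 with array weights. The median of the assembly factors lay between 0.034 and 0.33 without 1 array. The median of the partners was 0.056 with array weights, 0.025 with each probe set on its own, 0.066 with their mean and between -0.022 and 0.015 without 1 array. Without 1 array, the ubiquitin list lay between -0.065 and 0.14 with 0 to 1 calls, and the class I list between -0.066 and 0.051. Of 23 genes checked, the sign turned with array weights in Psmb6 (-0.083), Psmb8 (-0.013), Psme1 (-0.041) and Psmf1 (0.021), and with the mean of probe sets in Psme3 (0.070), Psme4 (0.19), Psma1 (-0.059) and Psmg2 (0.010). It also turned without 1 array in 14 of the 47 tested members, among them Psmb5 (-0.31 to 0.11), Psmb6 (-0.14 to 0.29), Psmb10 (-0.085 to 0.18), Psme1 (-0.12 to 0.33), Psme3 (-0.18 to 0.11) and Psmf1 (-0.25 to 0.23); the cause was not tested. With array weights limma called Psmd7 (0.89), Psmd1 (-0.80), Psmd9 (0.63), Psmd10 (0.41), Psmg2 (-0.49) and Psmc6. Samples share only a replicate number: deviations of same-numbered livers correlated at -0.09, -0.09 and -0.19, and the fit with the replicate block called 0 proteasome genes and had 0 higher at an unadjusted p under 0.05.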
